A study of Mus musculus with 24 samples.

Results

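The nuclear genes for oxidative phosphorylation were followed in dendritic cells, immune cells that present antigen, grown from mouse bone marrow with GM-CSF, a growth factor for myeloid cells. The 85 genes were chosen by name and by level. Their symbols begin with Nduf, Uqcr, Atp5 or Cox4 to Cox8, or are Sdha, Sdhb, Sdhc or Sdhd, and their mean count over the 24 libraries was at least 50. The names fitted 98 of the 55487 genes deposited, after 9 more with the pseudogene suffix -ps were set aside, and 13 of the 98 had a lower mean count. Just inside that minimum were Ndufaf6 (mean count 95.2) and Ndufb2 (97.8), and just outside it were Cox6a2 (45.7) and Cox7a1 (25.8). The 85 divide into 36 genes of complex I, 8 assembly factors of complex I, 4 genes of complex II, 8 of complex III, 12 of complex IV and 17 of complex V. All 85 are annotated as protein-coding, they lie on 19 chromosomes with 3 of them on the X chromosome, and all 85 passed the filter on low counts.

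Marrow came from male and female mice aged 8 to 10 weeks. Control mice (WT) carried the genotype ARPC4 Flox/Flox CD11c-Cre -/-, and knockout mice (KO) ARPC4 Flox/Flox CD11c-Cre +/-, so that both genotypes share the floxed Arpc4 alleles. The Cre recombinase is driven by CD11c, a gene of dendritic cells, and a cell can lose Arpc4 only after it has turned that gene on. Poly(A) RNA was sequenced daily from day 7 to day 10, from 3 mice per genotype and day, which gives 8 groups from 6 mice. The same mice recur on each day, so p-values between days rest on libraries that are not all from separate animals. GM-CSF was given at 50 ng/ml, cells were moved to fresh medium on days 4 and 7, and adherent cells were left behind. The labels state that over 90% of cells carried CD11c. The day 7 move to fresh medium lies between the earliest sample and the later ones, so time in culture and this step cannot be told apart.

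Oxidative phosphorylation makes ATP in the inner membrane of the mitochondrion. Complexes I and II pass electrons from NADH and succinate to ubiquinone, complex III hands them to cytochrome c, and complex IV passes them to oxygen. Complexes I, III and IV pump protons, and complex V, the ATP synthase, lets the protons back in to make ATP. Most subunits are made from nuclear genes and a few from mitochondrial DNA, and several nuclear subunits have isoforms that are used mainly in muscle, lung or testis. Dendritic cells resting in culture are known to use oxidative phosphorylation, and activated ones to lean on glycolysis.

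The promoters of the genes that moved most between days 7 and 8 in WT are shown. Each of these genes was called in the same direction in both genotypes. They are the 3 genes with the largest rises in WT (Atp5g1, Ndufa4 and Atp5b) and the gene with the largest fall (Cox7a2l). Each run is the RefSeq window on GRCm38.p6 of 250 bases before to 50 bases after the annotated start, read 5′ to 3′ on the strand of the gene. Capitals mark a match to 1 of the motifs given after the sequences.
Atp5b, chr10:128083057-128083356, forward strand: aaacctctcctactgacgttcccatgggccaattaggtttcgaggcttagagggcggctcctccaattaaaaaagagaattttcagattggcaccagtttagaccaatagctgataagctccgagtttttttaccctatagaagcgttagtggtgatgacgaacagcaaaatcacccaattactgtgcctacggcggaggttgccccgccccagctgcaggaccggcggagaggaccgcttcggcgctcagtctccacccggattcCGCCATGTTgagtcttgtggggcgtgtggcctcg
Atp5g1, chr11:96075582-96075881, reverse strand: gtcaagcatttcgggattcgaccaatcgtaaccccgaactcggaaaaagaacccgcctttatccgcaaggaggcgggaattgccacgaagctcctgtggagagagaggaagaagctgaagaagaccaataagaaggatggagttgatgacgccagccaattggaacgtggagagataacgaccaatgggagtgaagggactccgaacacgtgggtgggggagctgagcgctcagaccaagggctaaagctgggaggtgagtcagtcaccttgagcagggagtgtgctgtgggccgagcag
Ndufa4, chr6:11907401-11907700, reverse strand: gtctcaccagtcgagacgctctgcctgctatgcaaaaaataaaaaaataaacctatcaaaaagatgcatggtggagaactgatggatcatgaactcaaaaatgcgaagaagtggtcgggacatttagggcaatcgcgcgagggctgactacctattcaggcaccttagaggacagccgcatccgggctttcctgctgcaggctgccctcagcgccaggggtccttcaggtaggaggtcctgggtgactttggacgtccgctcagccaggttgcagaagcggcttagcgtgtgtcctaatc
Cox7a2l, chr17:83514284-83514583, reverse strand: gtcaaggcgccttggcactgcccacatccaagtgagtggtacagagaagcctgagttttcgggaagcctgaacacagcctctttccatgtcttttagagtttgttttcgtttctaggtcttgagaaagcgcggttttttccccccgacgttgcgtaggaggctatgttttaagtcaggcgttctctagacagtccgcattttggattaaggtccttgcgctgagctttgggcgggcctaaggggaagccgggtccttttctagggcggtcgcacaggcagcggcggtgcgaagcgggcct
The motifs were searched on both strands of the windows. They were the NRF1 motif, as GCGC, any 2 bases and GCGC again, and in a stricter form, within the looser one, that has AT as those bases, the ETS motif bound by GABPA, as CCGGAAG, and the YY1 motif, as AANATGGCG. Windows were found for 71 of the 85 genes, 76 windows in all. The looser NRF1 letters were in 28.9% of these windows, against 6.23% of all 32851 promoter windows and 12.4% of the 13387 windows of genes tested. The stricter letters were in 9.21% of the windows, against 0.971% and 1.96%. The ETS letters were in 25% against 8.86% and 17%, and the YY1 letters in 14.5% against 2.38% and 4.72%. At least 1 of the motifs was in 45 of the 76 windows. Of the windows shown, that of Atp5b holds the YY1 letters (on the reverse strand), and those of Atp5g1, Ndufa4 and Cox7a2l hold none of these letters.

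Libraries held 19952047 to 31049798 counts. The targeted gene Arpc4 was lower in KO without overlap on all 4 days, at 155 to 182 CPM against 188 to 199 CPM on day 7 and 173 to 185 against 208 to 242 CPM on day 10, where CPM are counts scaled to library size. Its log2 fold change was between -0.178 and -0.284, with edgeR adjusted p of 0.177 to 0.69, so it was not called on any day. The KO mouse numbers do not track a single animal over the days. The Y-linked gene Ddx3y was high under number 64 on days 7 and 9, under 68 a day after the first of these, and under 67 at the end, whereas in WT it was high under 63 each time. Itgax, which encodes CD11c, stood at 750 to 1660 CPM in all groups, and T and B lymphocyte markers summed to 0.997 to 4.24 CPM. The genes of oxidative phosphorylation took 0.581% to 0.613% of counts in WT on day 7 and 0.663% to 0.783% in WT on the later days. In KO these shares were 0.5808% to 0.6325% and then 0.712% to 0.7979%. They are shares of raw totals. With the scaling used for CPM, the median log2 fold change of the 85 genes from day 7 to day 10 was 0.0178 in WT and -0.0233 in KO.

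Levels between genes were compared in TPM, which is scaled by gene length. The mean TPM of the 85 genes ran from 2.04 for Ndufb2 to 834 for Cox8a, with a median of 103. The median was 81.1 in complex I, 163 in complex II, 195 in complex III, 249 in complex IV, 162 in complex V and 10.9 among the assembly factors, which help to build complex I and are not part of it. In complex I the highest gene was Ndufa1 (278 TPM) and the lowest Ndufb2, both accessory subunits. In complex II, the enzyme shared with the citric acid cycle, the membrane anchor Sdhd was highest (334 TPM) and the other anchor Sdhc lowest (97.7 TPM), with the flavoprotein Sdha at 198 and the iron-sulphur subunit Sdhb at 127 TPM. In complex III they were Uqcr10 (280 TPM) and the core protein Uqcrc1 (98 TPM), in complex IV Cox8a and Cox6c (78.8 TPM), and in complex V the catalytic subunit Atp5b (570 TPM) and Atp5l (29.1 TPM). These ranks rest on the gene lengths used for TPM, which are not given. By mean count, which is not scaled by length, Uqcrc1 was the highest gene of complex III (3442). Atp5l (1593) then lay above Atp5o (764), while Atp5b was still highest in complex V and Ndufb2 still lowest in complex I. Values for Ndufb2 and Cox6c carry a limit: Braf and Vps13b overlap them on the opposite strand, with counts equal to 1670% and 105% of theirs, and the strand setting of the counting is not given. Among the 85 genes 15 have such an opposite-strand neighbour with counts of at least 10% of their own, and 0 have a same-strand one.

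Where a subunit has tissue isoforms, the widely used isoform made up nearly all of the transcript. Cox4i1 stood at 481 TPM and its lung isoform Cox4i2 at 0.658 TPM (means over 24 libraries). Cox6a1 stood at 703 against 7.82 TPM for the heart and muscle isoform Cox6a2, and Cox6b1 at 573 against 1.94 TPM for the testis isoform Cox6b2. Cox7a2 (242 TPM) and Cox7a2l (211 TPM) were near each other in level, and the muscle isoform Cox7a1 was at 5.7 TPM. Cox8b and Cox8c had 0 counts in all 24 libraries, beside 834 TPM for Cox8a. Ndufa4, which was named for complex I and belongs to complex IV, stood at 127 TPM and its paralog Ndufa4l2 at 0.228 TPM. Another paralog, AA467197, chosen after its values were seen, was not low. On day 7 it stood at 124 to 137 TPM in WT, above Ndufa4 at 70.8 to 77.2 TPM. In KO on day 7 it stood at 83.1 to 96 TPM, beside 77.8 to 92.6 TPM for Ndufa4. The c-ring of the ATP synthase rotates and is encoded by 3 genes with the same mature product, of which Atp5g3 was at 214, Atp5g2 at 82.7 and Atp5g1 at 45.7 TPM. The order of the last 2 depends on the scaling by length. By mean count Atp5g1 (1902) lay above Atp5g2 (1180), with Atp5g3 highest (3954).

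**Figure D1:**
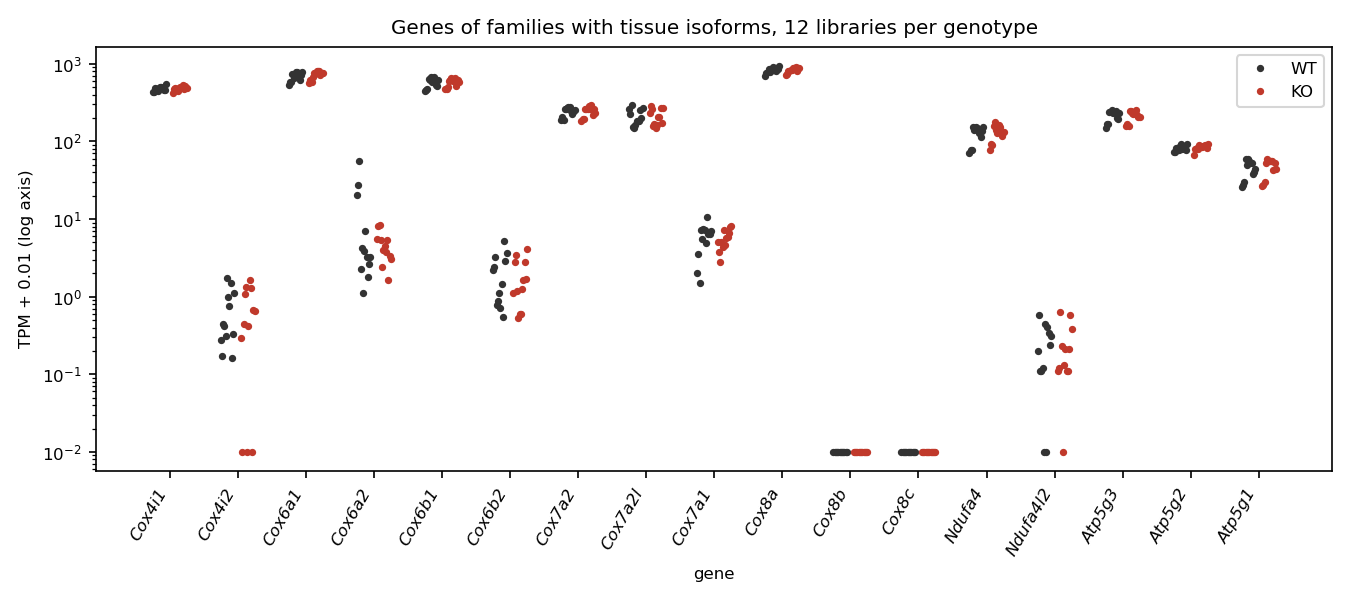
TPM plus 0.01 on a log axis for 17 genes of isoform families, with 1 point per library, 12 WT libraries in black and 12 KO libraries in red. Points at 0.01 have a TPM of 0, as all points of Cox8b and Cox8c do, and the highest points of Cox6a2 are WT libraries of day 7.

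Cox6a2, below the count minimum, was the gene of these names with the widest change. In WT it stood at 5.18, 6.98 and 14.3 CPM on day 7 and at 0.489, 0.919 and 0.239 CPM on day 8. In KO it stood at 1.36, 1.93 and 2.14 CPM on day 7 and at 1.14, 0.469 and 0.887 CPM on day 8. The WT values of day 7 lie above those of every other library. On day 7 KO lay below WT (log2 fold change -2.29, SE 0.41, edgeR adjusted p 0.0091), and Cox6a2 fell in WT by day 8 (-3.99, SE 0.46, adjusted p 9.6e-07). In KO the change to day 8 was -1.12 (adjusted p 0.052), and Cox6a2 fell by day 10 (-1.75, adjusted p 0.0059). Its gene (chromosome 7, 128205435 to 128206387, reverse strand, GENCODE M21 on GRCm38) lies inside Itgad on the other strand, and Itgad, chosen after its values were seen, was at 0.984 to 3.09 CPM in WT and 2.06 to 3.87 CPM in KO on day 7. Muscle markers summed to 3 to 4.38 CPM in WT on day 7 and 1.59 to 3.73 CPM in KO, with Mb at 0 in every day 7 library and Myh2 at 0 throughout, and their part in the level of Cox6a2 was not tested.

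Most of the 85 genes stayed within a narrow range over the 24 libraries. The highest library stood above the lowest by a median of 1.45 times in CPM, and by under 1.5 times in 54 genes and under 2 times in 82. The genes that went beyond 2 times were Cox7a2l (2.4 times), Ndufaf4 (2.26 times) and Ndufaf7 (2.02 times).

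**Figure D2:**
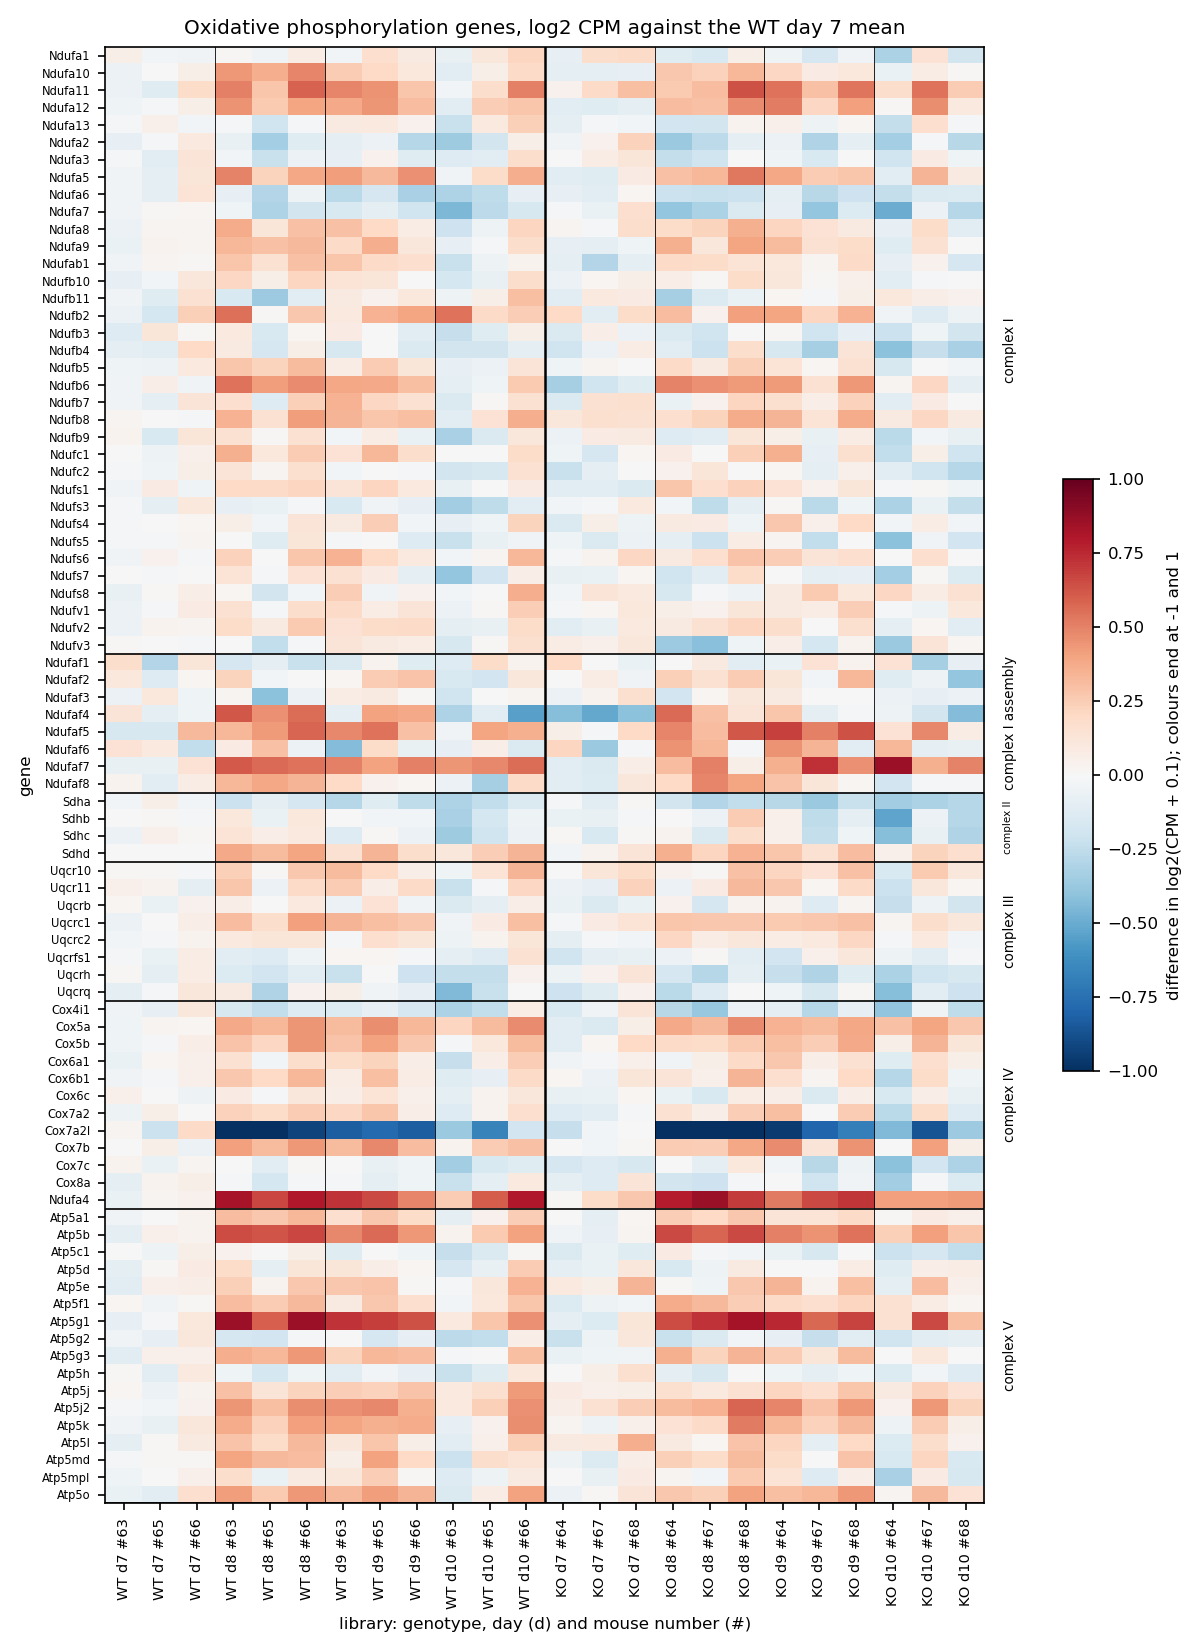
Each row is 1 of 84 of the 85 genes (1 is not reported here) and each column 1 of the 24 libraries; colour gives the difference in log2(CPM + 0.1) from the WT day 7 mean, from blue (lower) to red (higher). Cox7a2l stands out in blue from day 8, and Ndufa4, Atp5b and Atp5g1 in red.

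Between day 7 and day 8 some of the genes of the ATP synthase, of complex I and its assembly factors and of complex IV rose, while Cox7a2l fell by more than any other of the 85 genes. In WT 32 of the 85 genes were higher on day 8 and 2 lower, where 21.5% of all 14535 genes tested were called higher and 22% lower. In KO 25 were higher and 6 lower, against 21.1% and 20.9% of all genes. The lower calls in KO moved with single libraries, to 1 without 68 on day 7 or 67 on day 8, to 2 without 64 on day 8 and to 8 without 68 on day 8, and were 3 with the compared groups alone. The median log2 fold change was 0.115 in WT and 0.106 in KO for these genes, and -0.00379 and 0.0018 for all genes. The median of these genes moved with single libraries, to 0.222 without WT mouse 65 on day 8, to 0.176 without WT mouse 66 on day 7 and to 0.0665 without the KO library numbered 68 on day 8. The 34 genes called in WT and the 31 called in KO shared 26, which is 76.5% and 83.9% of each, and all 26 moved in the same direction, 24 of them higher. In 46 of the 85 genes there was a call in neither genotype. The same overlap was not counted over all genes, so it is not read as particular to these 85.

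**Figure D3:**
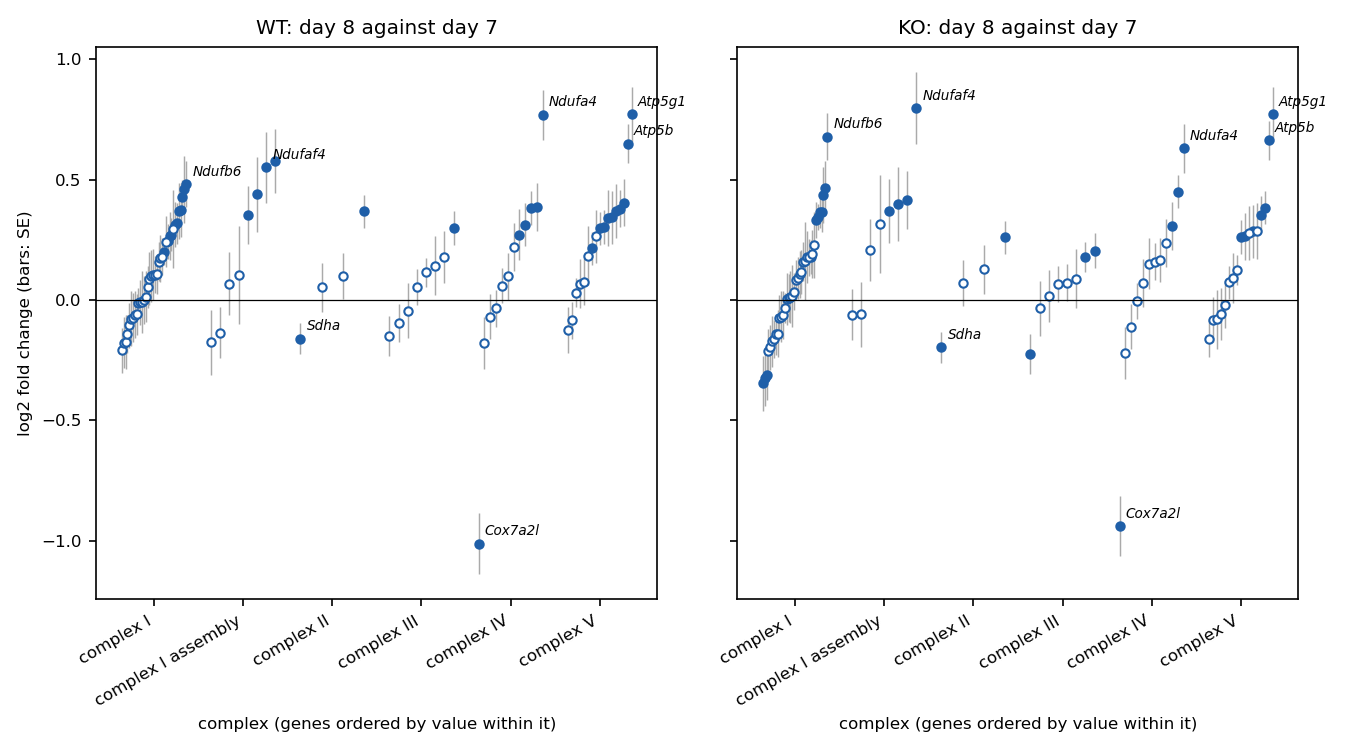
Log2 fold changes from day 7 to day 8 with their standard errors, by complex, in WT (left) and KO (right); filled points passed an adjusted p of 0.05 and open points did not. In both panels Cox7a2l is lowest, at -1.01 and -0.94, and complex V holds no filled point below 0.

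In complex V 10 of 17 genes rose by day 8 in WT and 7 in KO, and 0 fell in either. The median log2 fold change of the 17 was 0.298 in WT and 0.26 in KO. Atp5b, the catalytic beta subunit, stood at 558, 614 and 607 CPM in WT on day 7 and at 933, 918 and 939 CPM on day 8. In KO it stood at 577, 561 and 603 CPM and then at 935, 885 and 937 CPM. All day 8 libraries lie above all day 7 libraries, with log2 fold changes of 0.65 in WT (SE 0.08, edgeR adjusted p 2.2e-06) and 0.66 in KO (SE 0.08, adjusted p 1.8e-06). Atp5g1, a c-ring gene, rose from 48.4, 50.7 and 55.2 CPM to 92.9, 77.6 and 93 CPM in WT. In KO it rose from 48, 46.8 and 55.8 CPM to 80.7, 84.7 and 91.5 CPM. Its log2 fold change was 0.77 in both (SE 0.11 each, edgeR adjusted p 1.7e-05 in WT and 1.9e-05 in KO), the largest rise among the 85 genes in WT. The differences between the c-ring genes were not tested. Atp5g3 rose by 0.38 in WT (SE 0.08, edgeR adjusted p 0.00049) and 0.35 in KO, while Atp5g2 had values of -0.13 and -0.08 that did not pass (adjusted p 0.3 and 0.52). Atp5a1, the alpha subunit that pairs with Atp5b, rose by 0.30 in WT and 0.26 in KO. Atp5j, Atp5k and Atp5o were called in WT only, and whether they differ from KO in this step was not tested.

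In complex IV 5 of 12 genes rose and 1 fell in WT, and 3 rose and 1 fell in KO, a share of rises in KO near the 21.1% of all genes. The fall was that of Cox7a2l (chromosome 17, 83501918 to 83517330, reverse strand), which encodes a factor that joins complexes III and IV into supercomplexes. It stood at 149, 126 and 167 CPM in WT on day 7 and at 72.3, 69.5 and 77.2 CPM on day 8. In KO the values were 125, 144 and 147 CPM and then 72.3, 72.5 and 72.1 CPM. The groups do not overlap, and the log2 fold changes were -1.01 in WT (SE 0.12, edgeR adjusted p 2.1e-06) and -0.94 in KO (SE 0.12, adjusted p 5.4e-06). Its relative Cox7a2, a subunit of the enzyme itself, had values of 0.22 and 0.24 that did not pass (adjusted p 0.082 and 0.063).

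Ndufa4 stood at 37.1, 39.7 and 40 CPM in WT on day 7 and at 69.1, 61.9 and 68 CPM on day 8. In KO it stood at 39.2, 44.2 and 46.8 CPM and then at 67.3, 70.8 and 63.3 CPM. The days do not overlap in either genotype, with log2 fold changes of 0.77 in WT (SE 0.10, edgeR adjusted p 5.6e-06) and 0.63 in KO (SE 0.10, adjusted p 5.5e-05). AA467197 encodes a paralog known to take the place of Ndufa4 in complex IV, and was chosen after its values were seen. It moved the other way in WT, from 62.7, 58.2 and 56.7 CPM on day 7 to 46.6, 39.7 and 37.1 CPM on day 8 (log2 fold change -0.52, SE 0.11, adjusted p 0.00086). In KO it was already lower on day 7, at 40.8, 34.5 and 43.4 CPM (KO against WT -0.58, SE 0.11, adjusted p 0.015), and its change to day 8 of -0.03 did not pass (adjusted p 0.83). Cox5a, a subunit around the catalytic core, rose from 138, 145 and 144 CPM to 185, 179 and 193 CPM in WT (0.38, SE 0.07, edgeR adjusted p 0.00016) and by 0.45 in KO.

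In complex I 11 of 36 genes rose in WT and 0 fell, and 8 rose and 3 fell in KO, a share of rises in KO near the 21.1% of all genes. Among the core subunits encoded in the nucleus Ndufs1, which holds iron-sulphur clusters of the NADH-oxidising arm, rose in both genotypes, by 0.20 in WT and 0.34 in KO. Eef1b2 overlaps Ndufs1 on the opposite strand with 261% of its counts. The other complex I genes called were accessory subunits. Ndufb6 rose from 25.2, 26.9 and 25.2 CPM to 37.6, 34.5 and 35.7 CPM in WT (0.48, SE 0.10, edgeR adjusted p 0.00043) and from 20.4, 22.4 and 23.7 to 36.4, 35.3 and 34.7 CPM in KO (0.68, SE 0.10, adjusted p 1.3e-05). The genes that fell in KO were Ndufv3 (-0.35, SE 0.11, edgeR adjusted p 0.019), Ndufa2 (-0.33) and Ndufa7 (-0.31). In TPM the KO ranges of the days overlapped in each of these genes. Ndufa2 stood at 252, 282 and 295 TPM on day 7 and 235, 273 and 268 TPM on day 8. Ndufa7 stood at 93.5, 95.8 and 103 TPM and then at 85.6, 96.1 and 95.1 TPM. Ndufv3 lost the call in 6 of 14 alternatives, among them the fits without 64 or 68 on day 7 and without 64 or 67 on day 8 (-0.272 to -0.334, adjusted p 0.056 to 0.1). Among the 8 assembly factors the same 4 rose in both genotypes, Ndufaf4, Ndufaf5, Ndufaf7 and Ndufaf8. Ndufaf4 went from 14.1, 12.1 and 12.5 CPM to 19.9, 17.7 and 19 CPM in WT (0.55, SE 0.15, edgeR adjusted p 0.0048). In KO it went from 9.58, 9 and 9.64 CPM to 19.1, 15.8 and 14.1 CPM (0.80, SE 0.15, adjusted p 0.00024), the largest rise among the 85 genes in KO. Ndufaf7, a methyltransferase of the mitochondrion, went from 7.55, 7.54 and 8.77 CPM to 12.2, 11.8 and 11.6 CPM in WT (0.58, SE 0.13, adjusted p 0.0015).

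In complex II 1 gene was called higher and 1 lower in each genotype. Sdha, which oxidises succinate, stood at 293, 310 and 292 CPM in WT on day 7 and 257, 278 and 266 CPM on day 8 (-0.16, SE 0.06, edgeR adjusted p 0.046), and it fell in KO (-0.20, SE 0.06, adjusted p 0.017). Sdhd rose from 114 CPM in each WT library to 148, 142 and 150 CPM (0.37, SE 0.07, adjusted p 0.00022) and by 0.26 in KO. Sdhb and Sdhc had values between 0.05 and 0.13 that did not pass. In complex III Uqcrc1 rose in both genotypes (0.30 and 0.20), Uqcrc2 was called higher (0.18) and Uqcrh lower (-0.22) in KO, and the other genes were not called. In TPM Uqcrh did not fall in KO, at 205, 230 and 225 on day 7 and 222, 220 and 220 on day 8. The call of Sdha in WT was lost in 8 of 13 alternatives, among them each of the 6 fits without 1 library (-0.119 to -0.172, adjusted p 0.07 to 0.21), and its sign changed in 2 more, with 0.009 under library totals and 0.067 on log2(TPM + 1). The fall of Sdha in KO also depends on the scaling. In TPM Sdha stood in KO at 196, 193 and 194 on day 7 and at 206, 205 and 185 on day 8, without a fall.

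**Figure D4:**
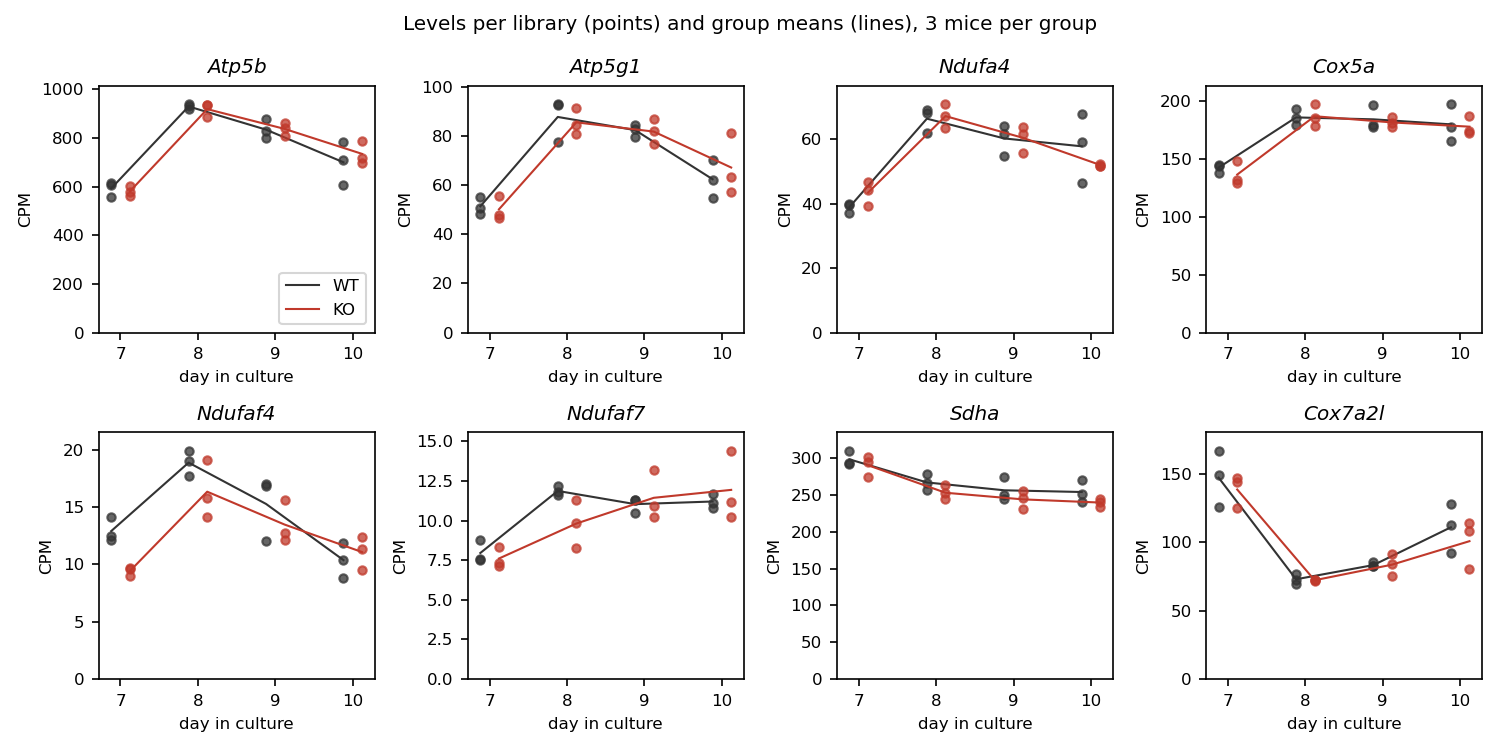
CPM by day in culture for 8 genes, WT in black and KO in red, with a point per library and a line through the means of 3 libraries. Atp5b, Atp5g1 and Ndufa4 peak on day 8 and Cox7a2l has its lowest values there.

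After day 8 few genes moved enough to be called. From day 8 to day 9 in WT, 0 rose and 1 fell (3.06% and 2.34% of all genes): Ndufa10, an accessory subunit of complex I, went from 98.7, 94 and 102 CPM to 86.8, 83.6 and 78.4 CPM (log2 fold change -0.24, SE 0.07, edgeR adjusted p 0.04). It was not called in any fit without 1 of the libraries compared, and with the mouse as a replicate block its adjusted p was 0.057 and Ndufb11 was called higher in its place (0.29, adjusted p 0.04). In KO 0 genes were called in this step (1.31% and 1.02% of all genes) by edgeR or by DESeq2. In edgeR 4 of the 85 genes had an unadjusted p under 0.05 in this step in KO, and 2721 of the 14535 genes tested did. From day 9 to day 10 in WT, 0 rose and 2 fell (1.18% and 2.42% of all genes), Ndufaf4 (-0.56, SE 0.15, adjusted p 0.042) and the acyl carrier Ndufab1 (-0.29, SE 0.07, adjusted p 0.036). Ndufab1 was not called with the mouse as a replicate block (adjusted p 0.059). DESeq2 called both, and also Atp5b (-0.254, adjusted p 0.0255) and Atp5g1 (-0.401, adjusted p 0.0263) lower and Cox7a2l higher (0.412, adjusted p 0.037). Without the WT library of mouse 66 on day 10, 9 genes were called lower, and without WT mouse 63 on day 10, or 65 or 66 on day 9, 0 were called. In KO 0 genes were called from day 9 to day 10 (0.0344% and 0.0619% of all genes) by edgeR or by DESeq2. Here 20 of the 85 genes had an unadjusted p under 0.05 in edgeR, and 1738 of the 14535 genes tested did. With the KO numbers exchanged to follow Ddx3y as a replicate block, Ndufc1 was called lower (-0.277, edgeR adjusted p 0.0488). Without the KO library numbered 67 on day 10, 3 were called lower.

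Most of the genes nevertheless had lower fitted values on day 10 than on day 9. This held for 74 of 85 in WT and 79 of 85 in KO, with medians of -0.103 and -0.132 against 0.0133 and 0.0067 for all genes, and these medians are given as descriptions with no test. They moved with single libraries of day 10, in WT to -0.0454 without mouse 63 and -0.219 without mouse 66, and in KO to -0.0836 without 64 and -0.197 without 67. In WT the median was also -0.155 without mouse 66 on day 9. Of the 32 genes higher on day 8 in WT, 30 had a lower value on day 10 than on day 9, and of the 25 in KO 24 did. The same was not counted for all genes that were higher on day 8. Cox7a2l moved the other way. In WT it stood at 82.5, 85.3 and 82.4 CPM on day 9 and 113, 92.1 and 128 CPM on day 10 (0.41, SE 0.12, edgeR adjusted p 0.071), and in KO the change of 0.27 did not pass (adjusted p 0.39). Libraries of the same day differed: the median of the 85 genes against the WT day 7 mean was -0.12, 0.000287 and 0.179 in WT mice 63, 65 and 66 on day 10, and -0.113, 0.0722 and -0.0379 in the KO libraries numbered 64, 67 and 68.

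Over the whole time, day 10 against day 7, genes were called in both directions in each genotype. In WT 7 genes rose and 6 fell (18.9% and 18.1% of all genes), and in KO 6 rose and 6 fell (19.7% and 17.1%). Of the 32 genes that rose by day 8 in WT, 7 were still called higher on day 10, and 6 of the 25 in KO. How many of all genes that rose by day 8 were still called was not counted. The calls of the 2 genotypes shared 7 genes, 53.8% of those in WT and 58.3% of those in KO: Cox5a, Atp5b and Ndufaf7 higher, and Ndufs3, Sdha, Ndufa7 and Cox7a2l lower. In 67 of the 85 genes there was a call in neither. This overlap, too, was not counted over all genes. The balance depends on the scaling of the libraries. With library totals alone 52 genes rose and 0 fell in WT and 39 rose and 0 fell in KO, while the median of all genes shifted to 0.221 and 0.225, and 5388 genes rose and 1188 fell in WT and 5391 and 1241 in KO. With limma-trend on log2(TPM + 1), 61 and 63 rose and 0 fell, beside 5806 and 6439 of all genes that rose and 1071 and 1060 that fell. The balance also moved with single libraries. In WT 3 rose and 10 fell without 66 on day 10, 10 rose and 2 fell without 63 on day 10, and 6 rose and 1 fell without 66 on day 7. In KO 3 rose and 10 fell without 67 on day 10, and 6 rose and 2 fell without 68 on day 7. Relative to the median of all genes, the median of these genes was 0.0331 in WT and -0.0267 in KO, and 0.0306 and -0.0329 with library totals. Its sign rests on single libraries, since in WT it was 0.108 without mouse 63 on day 10 and -0.0507 without mouse 66, and in KO 0.0157 without 68 on day 7, 0.0193 without 64 on day 10 and -0.0793 without 67. For day 8 against day 7 the same difference was 0.118 and 0.104, and 0.119 and 0.104 with library totals, where 58 rose and 1 fell in WT and 48 rose and 1 fell in KO (all genes 4718 and 2030 in WT, 4447 and 2026 in KO).

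Among the genes called, the 5 largest rises in WT from day 7 to day 10 were those of Ndufa4, Ndufaf7, Cox5a, Atp5j2 and Atp5b. Ndufa4 reached 46.3, 59.1 and 67.9 CPM on day 10 (0.57, SE 0.10, edgeR adjusted p 0.00022), all above day 7. In KO it reached 51.8, 51.8 and 52.3 CPM, also above day 7, with a value of 0.26 that did not pass (adjusted p 0.053). Ndufaf7 was at 10.8, 11.1 and 11.7 CPM in WT (0.49, SE 0.13, adjusted p 0.0062) and at 14.4, 10.2 and 11.2 CPM in KO (0.65, SE 0.13, adjusted p 0.00072). Cox5a stayed near its day 8 level in both genotypes, at 165, 177 and 197 CPM in WT (0.34, SE 0.07, adjusted p 0.00079) and 174, 187 and 172 CPM in KO (0.38, SE 0.07, adjusted p 0.00031). Atp5j2 rose by 0.27 in WT (adjusted p 0.038). Atp5b rose by 0.24 in WT (SE 0.08, adjusted p 0.024), with 1 WT library of day 10 at 608 CPM, within the range of day 7, and by 0.34 in KO. In WT Atp5j2 and Atp5b each lost the call in 5 of 13 alternatives. For Atp5j2 these were the fits without 1 of the day 7 libraries or without 65 or 66 on day 10 (0.171 to 0.298, adjusted p 0.059 to 0.23). For Atp5b they were the fits without 63 on day 7 or without 65 or 66 on day 10 (0.155 to 0.234, adjusted p 0.063 to 0.16), that without the filter on low counts and that of the compared groups alone. In KO Atp5g1 (0.42, SE 0.11, edgeR adjusted p 0.0064) and the complex I subunit Ndufa12 (0.31, SE 0.11, adjusted p 0.033) were also among the 5 largest rises called. Atp5g1 was not called without the KO library numbered 67 on day 10 (0.26, adjusted p 0.058) or with the compared groups alone, and Ndufa12 was not called without 1 of the day 7 libraries or without 67 on day 10 (0.16, adjusted p 0.25). With the labelled KO numbers as a replicate block, which do not follow an animal, the adjusted p of Ndufa12 was 0.054, and with the exchanged numbers it was 0.012.

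The largest fall in each genotype was that of Cox7a2l. Cox7a2l was lower on day 10 than on day 7 in both genotypes, with log2 fold changes of -0.41 in WT (SE 0.12, edgeR adjusted p 0.014) and -0.46 in KO (SE 0.12, adjusted p 0.0065). In WT the highest day 10 library, at 128 CPM, lay just above the lowest of day 7, and the call was lost without 66 on day 7 (-0.30, adjusted p 0.091) or without 65 on day 10 (-0.28, adjusted p 0.091). In both genotypes it was also lost with library totals (-0.169 in WT and -0.228 in KO) and on log2(TPM + 1) (-0.126 and -0.162). Sdha stood at 241, 251 and 270 CPM in WT on day 10 (-0.23, SE 0.06, adjusted p 0.0071) and at 234, 240 and 245 CPM in KO (-0.28, SE 0.06, adjusted p 0.002). The other named falls were Ndufa7 (-0.29), the core subunit Ndufs3 (-0.24) and Ndufa6 (-0.22) in WT, with adjusted p of 0.04, 0.034 and 0.036, and Ndufa7 (-0.30), Ndufa2 (-0.29) and Uqcrh (-0.27) in KO, with adjusted p of 0.031, 0.05 and 0.015. Ndufa7 in WT was not called with the mouse as a replicate block (adjusted p 0.051), and Ndufa2 in KO had an adjusted p of 0.063 with the labelled numbers as the block and 0.026 with the exchanged ones. Of 13 alternatives in WT Ndufa7 lost the call in 9, Ndufs3 in 7 and Ndufa6 in 6, and of 14 in KO Ndufa7 lost it in 7, Ndufa2 in 9 and Uqcrh in 3, sign changes not counted. Kbtbd4 overlaps Ndufs3 on the opposite strand with 42.3% of its counts. Without WT library 63 or 66 on day 7 the 13 calls in WT became 7, and without 65 on day 10 they became 6; without KO library 64 on day 7 or on day 10 the 12 calls in KO became 7. Sdha, Ndufs3 and Ndufa6 in WT and Sdha, Ndufa2 and Uqcrh in KO had values above 0 on log2(TPM + 1), as given with the dependence on processing.

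The genotypes were then compared in the same genes on each day. Arpc4 encodes part of the Arp2/3 complex, which starts new branches on actin filaments. By edgeR 0 of the 85 genes passed between KO and WT on day 7, 8, 9 or 10, where 1.45%, 0.00688%, 0.00688% and 0.0138% of all genes did. Without adjustment 4, 1, 0 and 1 genes had a p under 0.05, where 2280, 859, 1185 and 1061 of the 14535 genes tested did. DESeq2 called 0 of the 85 genes on each day. The intervals bound what could have been missed: the 95% interval of the fold change lay within 1.5-fold in 84, 85, 84 and 84 of the 85 genes. The medians were -0.0238, -0.0454, -0.0221 and -0.0386, and -0.0136, -0.00289, 0.000347 and 0.00239 for all genes. Their signs rest on single libraries on days 7, 9 and 10. The median was 0.0223 without WT mouse 66 on day 7 and 0.0199 without the KO library numbered 67 on day 9. On day 10 it was -0.114 without WT mouse 63 and 0.0685 without WT mouse 66. On day 8 it moved to -0.0821 without WT mouse 65 and -0.0139 without WT mouse 66.

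**Figure D5:**
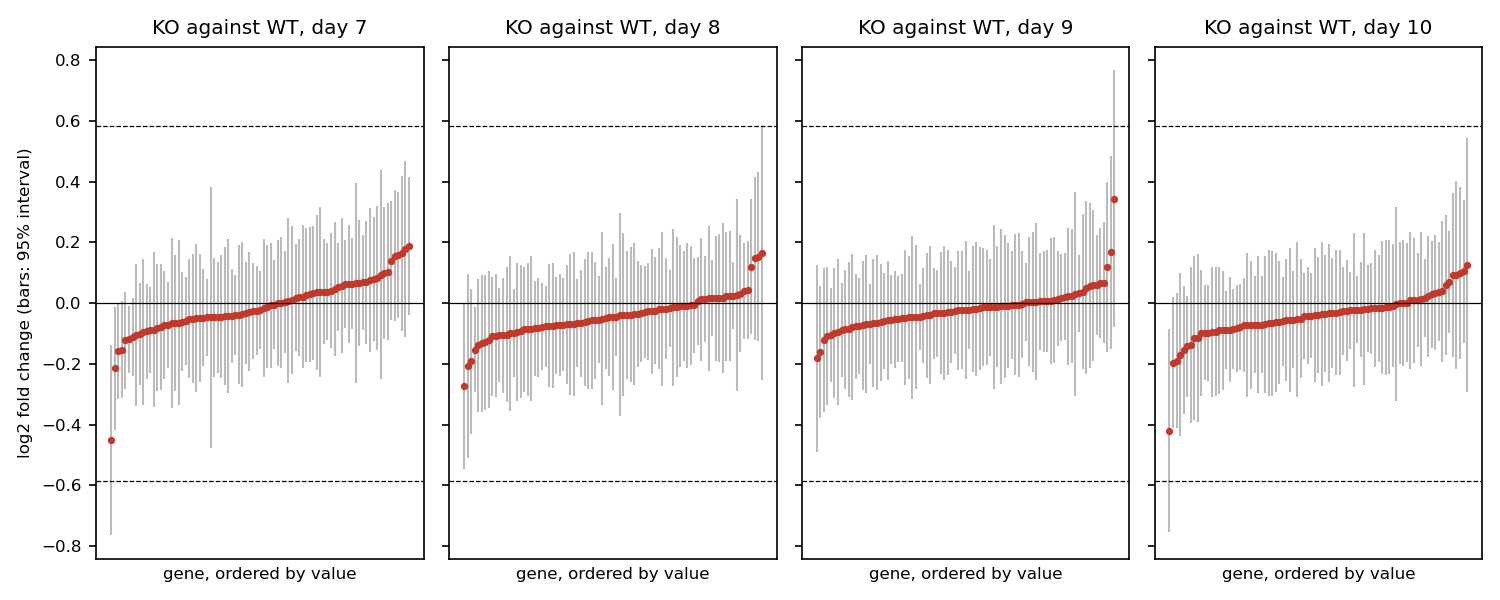
Log2 fold change of KO against WT for the 85 genes on each day, ordered by value, with 95% intervals as grey bars and dashed lines at a fold of 1.5 either way. Nearly all bars lie between the dashed lines, and those of Ndufaf4 on day 7, Ndufaf6 on day 9 and Ndufb2 on day 10 reach beyond them.

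The genes with the smallest p on each day are given although they did not pass. On day 7 they were Ndufaf4 and Ndufs1. Ndufaf4 stood at 9.58, 9 and 9.64 CPM in KO, below all 3 WT libraries (-0.45, 95% interval -0.76 to -0.14, edgeR adjusted p 0.14), and the value for Ndufs1 was -0.12 (adjusted p 0.28). On day 8 they were Ndufa10 (-0.15, adjusted p 0.78) and Ndufaf7 (-0.27, adjusted p 0.85). On day 9 they were Ndufaf6 (0.34, adjusted p 0.73) and Ndufa1 (-0.16, adjusted p 0.77). On day 10 they were Ndufb2, at 3.1, 2.91 and 3.07 CPM in KO and 4.7, 3.65 and 3.8 CPM in WT (-0.42, adjusted p 0.52), and Ndufa1 (-0.20, adjusted p 0.71). The ranges of KO and WT were apart on day 7 in 12 genes lower in KO and 4 higher, where 14.2% and 11.9% of all genes had ranges apart in these directions. The change from day 7 to day 10 was also compared between genotypes. In this interaction 0 genes passed by edgeR (0.0619% of all genes) and 0 by DESeq2. An unadjusted p under 0.05 was found for 3 of the 85 genes and for 917 of the 14535 genes tested. The interval lay within 1.5-fold in 80 of 85. The smallest p were those of Ndufaf4 (0.55, SE 0.21, adjusted p 0.69) and Ndufb2 (-0.51, SE 0.23, adjusted p 0.75).

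The 13 subunits encoded by mitochondrial DNA had calls only toward lower levels over these steps. Between days 7 and 8, 0 rose and 4 fell in WT (median -0.423), and 0 rose and 1 fell in KO (median -0.241), where 22% and 20.9% of all genes were called lower. In this step mt-Co1, the catalytic core of complex IV, had log2 fold changes of -0.54 and -0.64 (edgeR adjusted p 0.0036 and 0.001). From day 7 to day 10, 0 rose and 5 fell in each genotype, where 18.1% and 17.1% of all genes fell, among them mt-Cytb of complex III (-0.58, SE 0.14, adjusted p 0.0033 in WT) and mt-Nd3 (-1.27, SE 0.46, adjusted p 0.035 in WT), which stood at only 1.36 to 2.14 CPM in WT on day 7. As a share of library totals these 13 subunits took 2.59% to 3.06% in WT on day 7 and 2.1% to 2.85% on day 10. In KO they took 2.17% to 2.66% and then 2.14% to 2.21%, so these days overlap in both genotypes. Between KO and WT 0 of the 13 passed on any day, with medians of -0.291, -0.167, -0.615 and -0.271 on days 7 to 10 and values above 0 in 2, 2, 0 and 0 of the 13.

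Other genes of the same system were read from lists, whose shares are set beside the 21.5% higher and 22% lower of all genes in WT and 21.1% and 20.9% in KO. Of 6 further subunits and electron carriers, 3 rose and 2 fell by day 8 in WT, among them cytochrome c (Cycs, 0.65) and cytochrome c1 (Cyc1, 0.55) higher, and Higd2a (-0.57) lower. Of 42 other assembly factors 21 rose and 5 fell in WT and 15 rose and 5 fell in KO. Genes of the mitochondrial ribosome, which translates the mitochondrial subunits, rose in 38 of 77 cases and fell in 2 in WT, and 38 and 3 in KO, with medians of 0.214 and 0.209. In the citric acid cycle 11 of 18 rose and 2 fell in WT and 13 and 2 in KO. Glycolysis moved in both directions, with 10 of 20 higher in each genotype and 4 lower in WT and 5 in KO.

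Of 18 regulators of mitochondrial biogenesis 8 rose and 1 fell by day 8 in WT, and 7 rose and 1 fell in KO. The largest rise was that of Myc, a growth regulator, at 1.61 in WT (SE 0.12, edgeR adjusted p 5.7e-09) and 1.68 in KO. The coactivators Ppargc1b (0.84 and 1.13) and Pprc1 (0.73 and 0.68) rose in both. Among the factors whose motifs were searched, Nrf1 rose by 0.25 and 0.24, Yy1 fell in WT (-0.28, adjusted p 0.002) and Gabpa did not pass (0.09 and 0.20). By day 10 Myc (0.89), Gabpb2 (0.38) and Nrf1 (0.26) were still higher in WT and Yy1 lower (-0.26). In the same comparison in WT 3 of 18 citric acid cycle genes were higher and 0 lower, 6 and 2 of 42 assembly factors, 4 and 3 of 20 glycolysis genes and 10 and 4 of 77 ribosomal genes, shares near or below the 18.9% and 18.1% of all genes. In KO 8 of 18 citric acid cycle genes were higher and 0 lower, beside 19.7% and 17.1% of all genes. The other KO counts were 8 and 7 of 42 assembly factors, 4 and 3 of 20 glycolysis genes and 13 and 4 of 77 ribosomal genes. Of the 6 further subunits and carriers 0 were called in WT, and 3 were higher and 0 lower in KO. In the interaction of genotype and day 0 genes of these lists passed. Among those called in WT, the citric acid cycle genes Fh1 (0.74) and Idh3a (0.42), the assembly factors Cox17 (0.81) and Fmc1 (0.50), the glycolytic Aldoc (0.58) and Pfkp (0.46) and the ribosomal Mrpl18 (0.59) and Mrpl41 (0.45) were higher. Lower in WT were the assembly factors Sdhaf4 (-0.36) and Coa5 (-0.20), the hexokinase Hk3 (-0.80), the glucose carrier Slc2a3 (-0.67), the carrier Ucp2 (-0.59), the channel Vdac2 (-0.43), and Mrpl23 (-0.46) and Mrpl30 (-0.31). Ucp2 and Vdac2 belong to a list of ATP export and uncoupling with 7 genes tested. Of these 0 were higher and 3 lower in WT, and 1 was higher and 2 lower in KO. Between KO and WT on day 7, where 1.45% of all genes passed, 1 gene of these pathway lists did, Pdha1, a subunit of pyruvate dehydrogenase, at 87.7 to 91.2 CPM in KO and 105 CPM in each WT library (-0.23, SE 0.05, edgeR adjusted p 0.042).

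Cell type markers were read over the same days. Markers of cycling cells summed to 399 to 446 CPM in WT on day 7, 591 to 710 CPM on day 8 and 1253 to 1589 CPM on day 10, and to 515 to 767, 465 to 1011 and 982 to 1898 CPM in KO, where by day 8 10 of 15 markers rose and 1 fell in WT, and 3 rose and 1 fell in KO, beside the 21.5% and 21.1% of all genes that rose. Monocyte markers summed to 2122 to 2755 CPM in WT on day 7 and 760 to 819.9 CPM on day 8, and to 2401 to 3036 and 724 to 1152 CPM in KO, with 2 of 6 markers higher and 2 lower in WT, and 1 higher and 3 lower in KO. The higher ones included Vcan (3.73 in WT) and the lower ones Fn1 (-2.58 in WT). Dendritic cell markers summed to 3059 to 3789 CPM in WT on day 7, 3654 to 4300 on day 8 and 6319 to 8343 CPM on day 10, with 8 of 13 higher on day 10 in each genotype, beside 18.9% of all genes in WT and 19.7% in KO. Macrophage markers summed to 5182 to 5604 CPM and granulocyte markers to 3279 to 4987 CPM in WT on day 7, and on day 10 the sums were 3491 to 3582 and 5530 to 7429 CPM. In KO the macrophage markers summed to 4907 to 6209 CPM on day 7 and 3220 to 4639 CPM on day 10, and the granulocyte markers to 3977 to 7463 and 4858 to 6288 CPM. Of 13 granulocyte markers 5 were higher and 1 lower on day 10 in WT, and 0 higher and 2 lower in KO, and 0 passed the test of the difference between genotypes. The macrophage marker Timd4 had at most 3 counts in any library. Between KO and WT on day 7 the monocyte marker Vcan (2.10, edgeR adjusted p 0.0091) and the macrophage marker Fcgr1 (0.46, adjusted p 0.02) were higher in KO. In bulk RNA a change in the share of a cell type and a change in RNA per cell cannot be told apart, and the part of these markers in the changes of the genes of oxidative phosphorylation was not tested.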

How the data were processed

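RNA was measured in 24 libraries of 8 groups, by genotype and day in the labels. The authors deposited raw counts per gene and TPM values for 55487 genes with their symbols; TPM is scaled by gene length and library total. FastQC 0.11.9, STAR 2.6.1, DESeq2 1.22.2 and mm10 are named in the submitters' processing notes, without their roles; the counter, its annotation and its strand setting are not given in the sources used here. Symbols are the authors' and positions are 1-based from the GENCODE M21 annotation of GRCm38, with which all member identifiers matched.

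Counts were fitted with edgeR 4.0.16 in R 4.3.3 (filterByExpr over the 8 groups, 14535 genes kept, TMM scaling, quasi-likelihood fit of all 24 libraries, 16 residual degrees of freedom). Calls needed p under 0.05 in 2-sided tests after Benjamini-Hochberg adjustment over all genes tested, in 13 comparisons. CPM values carry the TMM factors. Standard errors were derived as the fold change divided by the root of F. The fit was tested on simulated data. At totals of 19952047 to 31049798 counts the spread between mice exceeds counting error for most members; reads carry no molecular identifiers.

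Alternatives were DESeq2 size factors, library totals alone, DESeq2 1.42.0 with its Wald test, all genes without the low-count filter, the compared groups alone, limma-trend (limma 3.58.1) on log2(TPM + 1), each library left out, and the mouse as a replicate block. Mouse numbers in the labels pair libraries across days within a genotype. Libraries with the same number deviated from the group means with a correlation of 0.401 on average in WT (18 pairs of libraries) and of 0.00473 in KO, over 11321 genes; with the KO numbers exchanged to follow Ddx3y (this alternative was chosen after seeing the data) the KO value was 0.528. Transcripts were compared with blastn 2.17.0: 17 members have a copy of at least 95% identity over at least 50% of their length, and for 0 of them do the copies hold 10% or more of the member's counts.

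Named members were, by rule, the highest and lowest TPM of each complex, the 5 largest calls per direction for day 10 against day 7, the 2 largest for adjacent days, the 2 smallest p where none passed between genotypes, and the isoform families; others, such as genes called in both genotypes, were added after their values were seen. A single member is counted in the totals and not reported by itself here. The members and gene lists were chosen with earlier results of these data known.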

Additional observations from a re-analysis of the deposited data

Results flagged for a closer look

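Ndufv3, a subunit of complex I, lay on opposite sides of WT on different days. On day 7 the KO libraries stood at 60.7, 59.9 and 62.4 CPM, all above the WT libraries at 58.4, 58 and 57 CPM, with a log2 fold change of 0.0773. On day 9 the KO libraries stood at 60.4, 51.1 and 59.1 CPM, all below the WT libraries at 63.1, 61.4 and 60.9 CPM. The difference between the days was not tested, and Ndufv3 did not pass on either day.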

How the results depend on the processing

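Called members are given in either direction. With library totals alone they became 52 (WT day 10 against day 7), 59 (WT day 8 against 7), 39 (KO day 10 against 7), 49 (KO day 8 against 7) and 0 (WT day 9 against 8); with limma-trend on log2(TPM + 1) they became 61, 64, 63, 58 and 0. With no filter on low counts WT day 10 against 7 gave 8 and WT day 9 against 8 gave 0. With the compared groups alone KO day 10 against 7 gave 6 and WT day 9 against 8 gave 2. WT day 10 against 9 gave 5 in the DESeq2 Wald test and 1 with the mouse as a replicate block, and KO day 10 against 9 gave 1, Ndufc1, with the exchanged KO numbers as replicate block. With 1 library left out, WT gave 6 to 13 (day 10 against 7), 25 to 39 (day 8 against 7), 0 (day 9 against 8) and 0 to 9 (day 10 against 9), and KO gave 7 to 13, 22 to 28, 0 and 0 to 3; KO against WT on each day and the interaction gave 0 under all alternatives run. Among 41 named results the labelled mouse number as a replicate block changed the call of Ndufa10, Ndufa12, Ndufa2, Ndufa7 and Ndufab1, as given with the results, and of no other. Of 553 alternative values of 41 named results, 436 kept direction and call, 107 lost the call and 10 changed sign. Those 10 were Sdha in WT with library totals (0.005 for day 10 against 7, 0.009 for day 8 against 7) and on log2(TPM + 1) (0.051 and 0.067), Sdha in KO (0.031), Ndufa2 in KO (0.013), Uqcrh in KO (0.038) and Ndufs3 in WT (0.045) on log2(TPM + 1), and Ndufa6 in WT with library totals (0.020) and on log2(TPM + 1) (0.067), all but the stated day 8 values for day 10 against 7; the cause was not tested.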
